A study of Homo sapiens with 30 samples.

Results

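AZD8186 inhibits the β and δ isoforms of phosphoinositide 3-kinase (PI3K), and its effect on gene expression was compared between the diffuse large B-cell lymphoma (DLBCL) cell lines K422 and HT. Both lines are labelled germinal center B-cell-like (GCB). The comparison used 16 of the 30 libraries of the series, 8 from K422 and 8 from HT, chosen by cell line alone. In each line, cells received 0.5 µM AZD8186 or the solvent DMSO for 6, 12, 18 or 24 h, and 1 RNA library was sequenced for each treatment and hour. Treated and control libraries were paired by line and hour, which gave 4 pairs per line. All cells were grown in RPMI medium with fetal calf serum. Each line is a single cell line, so the difference between them cannot be told apart from any other property in which they differ, and it does not describe GCB DLBCL as a class. The sources do not say that libraries came from separate cultures, so the p-values measure only the spread among these libraries, with the hours taken as replicates.

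PI3K turns signals from the B-cell receptor and from growth factor receptors into a membrane lipid that recruits and activates the kinase AKT. AKT keeps the FOXO transcription factors out of the nucleus and, through the kinase mTOR, promotes ribosome production, lipid synthesis and nucleotide synthesis. When the pathway is blocked, FOXO factors induce genes of growth arrest, of autophagy and of feedback onto the pathway itself, while the expression of growth genes, many of them targets of MYC, declines. In germinal center B cells the same pathway also sets whether a cell keeps its germinal center program or moves toward a plasma cell.

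Per library, the summed estimated counts ranged from 15820230 to 22190876, with a median of 18591639. Of 21112 genes in the files, 10965 had enough reads to be tested. Ribosomal protein genes took 11.38 to 13.3% of the counts in K422 with DMSO and 13.7 to 16.59% with AZD8186, against 16.04 to 17.29% and 17.5 to 18.44% in HT, and the part of this shift in the results was not tested beyond leaving those genes out. All 8 markers of germinal center B cells were measured in both lines with MS4A1, the CD20 gene, at 25 CPM (counts scaled to the library total) in HT and 145 in K422. Of 10 T-cell markers in the files 4 were tested, and their summed level was 3.61 to 4.29 CPM in HT and 99.9 to 111 CPM in K422 with DMSO, nearly all of it CD3G and CD3D. Of 10 stroma markers 4 were tested, with 1.15 to 2.0 CPM in HT and 286 to 403 in K422 with DMSO and 535 to 660.0 with AZD8186. That sum was mostly DCN, the matrix proteoglycan decorin, at 442 CPM in K422, while VIM stood at 0.433 CPM. Of the myeloid markers only CD68 was tested, at 5.63 CPM in HT and 4.13 in K422.

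The genes of the drug's targets were present in both lines. The β isoform gene PIK3CB had a mean of 45.3 CPM in HT and 34.6 CPM in K422, and the δ isoform gene PIK3CD had 130.0 and 51.9 CPM. Among 33 tested genes of the PI3K, AKT and mTOR pathway, 2 responses were higher in K422 (AKT1S1 and TSC1) and 4 lower (PIK3CG, AKT1, EIF4EBP1 and RPTOR). Together they made 18.2% of the list, close to the 16.6% over all genes tested. The calls of TSC1 and AKT1 were lost in 10 and 7 of 23 alternative analyses. PIK3CG, the γ isoform, went in opposite directions, with 16.9, 21.1, 22.2 and 20.9 CPM in HT with DMSO at 6, 12, 18 and 24 h and 20.3, 23.1, 26.8 and 23.0 CPM with AZD8186. In K422 the same values were 58.1, 56.9, 69.2 and 71.2 CPM with DMSO and 39.7, 38.8, 48.2 and 46 CPM with AZD8186. PIK3CG was thus higher with the drug in HT and lower in K422, with log2 fold changes of 0.20 ± 0.06 and -0.56 ± 0.05 (difference -0.77 ± 0.08, adjusted p = 0.00022).

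The response to AZD8186 was broader and larger in K422 than in HT. A response is the log2 fold change of AZD8186 over DMSO within pairs, and the difference is the response of K422 minus that of HT, each ± its standard error. In K422 2985 genes rose and 2847 fell, 27.2% and 26% of those tested, at an adjusted p under 0.05 by edgeR's quasi-likelihood test. In HT 1343 rose and 1331 fell, 12.2% and 12.1%. At least 2-fold changes numbered 451 up and 122 down in K422, and 123 up and 15 down in HT. The median absolute log2 fold change over all genes was 0.27 in K422 and 0.16 in HT. Across genes, which are not independent replicates, Pearson's r between both responses was 0.48.

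The difference itself passed for 1822 genes (16.6% of those tested). The response of K422 was higher for 800 of them (7.3%) and lower for 1022 (9.32%). It reached 2-fold for 106 higher and 68 lower genes. The 4 log2 ratios of one line did not overlap the 4 of the other for 2442 of all genes tested (22.3%) and for 1603 of the genes that differed. An exact permutation test of 4 ratios against 4 cannot give a p under 0.0286, so single genes rest on the fit across all genes. Single pairs moved these counts. Without the HT 12 h, HT 24 h or K422 18 h pair 513, 488 and 445 responses were higher in K422, and without the K422 6 h pair 1340. Lower responses numbered 563, 590 and 577 without the HT 12, 18 or 24 h pair, 622 and 580 without the K422 12 or 18 h pair, and 1612 without the K422 6 h pair.

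Genes that differed, with at least 1 CPM in each line, were divided by what each line did. 1024 responded in K422 and did not pass in HT, 512 of them with a higher and 512 with a lower response in K422. 520 responded in the same direction in both lines and more strongly in K422. 126 responded in HT and did not pass in K422, and only 12 responded in both lines and more strongly in HT. 50 responded in opposite directions, 37 of them rising in HT and falling in K422 and 13 the reverse. A further 29 differed with neither line's response past the threshold, and 61 had under 1 CPM in a line. Of 3776 genes that passed in K422 and not in HT, the difference itself passed for 1059. Among 1999 genes that responded alike in direction in both lines, the absolute log2 fold change was larger in K422 for 80.0%, with a median ratio of 1.51. Leaving out 1 pair gave 14 to 91 opposite genes, 567 to 1590 with a response in K422 only, 52 to 184 in HT only, 232 to 939 stronger in K422 and 2 to 28 stronger in HT. A response in one line only means below that it passed there and not in the other, whose values may have moved the same way. The plot of the responses of both lines shows the genes of each class.

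**Figure D1:**
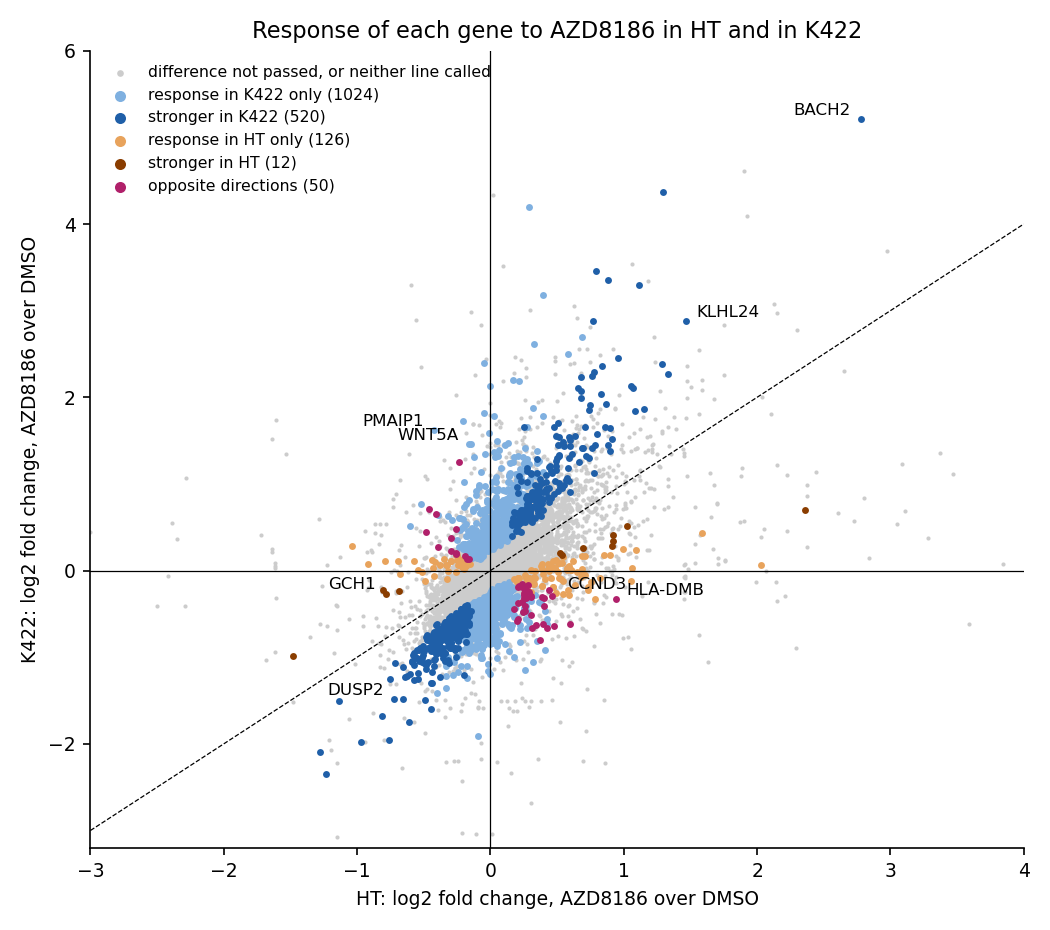
Each point is a gene, with its log2 fold change of AZD8186 over DMSO in HT on the x axis and in K422 on the y axis; colours give the classes, with the number of genes in each in the key, and the dashed line marks equal responses. Genes that differed but had under 1 CPM in a line are left out, and 10 genes lie outside the axes. The 520 genes that responded more strongly in K422 lie between the y axis and the dashed line in the upper right and the lower left, the 1024 with a response in K422 only lie along the y axis, and BACH2 stands apart at 2.78 in HT and 5.21 in K422.

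Genes of ribosome production and growth fell in both lines and fell further in K422. Of 60 tested MYC targets of ribosome assembly and growth, 37 had a lower response in K422 and 0 a higher one, and 54 fell in K422 against 42 in HT. Of 66 ribosome biogenesis genes 40 were lower, 63 fell in K422 and 52 in HT. The median difference was -0.32 and -0.34, beside -0.0013 over all genes. The one biogenesis gene with a higher response was NOB1, a nuclease of late small-subunit maturation (0.02 in HT and 0.32 in K422). The gap was already there at 6 h: biogenesis genes had median log2 ratios of -0.21, -0.29, -0.31 and -0.33 in HT and -0.59, -0.64, -0.60 and -0.61 in K422 at 6, 12, 18 and 24 h. These lists were written with earlier results of the same libraries known, and the calls were fewest, 9 and 11, without the 12 h pairs of both lines.

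PWP2, a scaffold of the early small-subunit particle, passed in K422 and not in HT. HT had 86.8, 77.2, 89.6 and 78.0 CPM with DMSO at 6, 12, 18 and 24 h and 78.1, 71.1, 87.4 and 73.1 CPM with AZD8186. In K422 the values were 85.4, 87.9, 92.6 and 81.8 CPM with DMSO and 50.01, 46.1, 52.6 and 48.8 CPM with AZD8186. All 4 treated K422 libraries lay below all 4 controls, while the 2 groups of HT overlapped (-0.10 ± 0.05 in HT, -0.82 ± 0.05 in K422, difference -0.72 ± 0.07, adjusted p = 0.00022). UTP4 of the same particle fell in both lines, by 0.36 and 0.93 on the log2 scale, as did UTP20 (-0.40 in HT and -0.92 in K422), NOLC1, a nucleolar chaperone (-0.29 in HT and -0.75 in K422), and DKC1, the pseudouridine synthase (-0.32 in HT and -0.73 in K422). DCTPP1, which clears non-standard nucleotides, fell by 0.28 in HT and by 0.90 in K422 (difference -0.62 ± 0.08, adjusted p = 0.001).

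MYC binds DNA as a dimer with MAX, and the promoters of DCTPP1 and UTP20 are printed because they show the letters that this dimer prefers next to the start of genes that fell further in K422. The letters searched were CACGTG, on both strands, in the 250 bases before the start of each gene in RefSeq's annotation of GRCh38.p14, which is a later patch of the build named for the files. Of 48 MYC targets with an entry 12 held them (25%), beside 9.29% of 8603 genes tested with an entry and 6.49% of all 27305 promoters. They were in 6 of 57 ribosome biogenesis promoters (10.5%), whose median difference was like that of the MYC targets, and in 8 of 31 promoters of lysosome and autophagy genes (25.8%), a list that rose mainly in K422. The stretches run up to the gene's start, 5′ to 3′ on the gene's strand, with CACGTG in capitals.
DCTPP1 (chr16:30429801-30429854, - strand): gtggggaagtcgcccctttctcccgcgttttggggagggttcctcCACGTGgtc
UTP20 (chr12:101280050-101280104, + strand): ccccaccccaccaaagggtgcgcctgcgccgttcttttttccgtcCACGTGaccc
The match ends 3 bases before the start in DCTPP1 and 4 in UTP20, and a match of letters is a description of the sequence, not a binding site.

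The RNA of MYC itself did not follow this pattern. MYC protein, which the study reports as reduced in HT and K422 on immunoblots, was not measured in these libraries. MYC RNA was 177, 192, 192 and 194 CPM in HT with DMSO and 147, 152, 159 and 167 CPM with AZD8186, and 283, 268, 306 and 297 CPM and 229, 237, 252 and 276 CPM in K422. It fell by 0.27 in HT and by 0.22 in K422 on the log2 scale, and the difference of 0.06 ± 0.07 did not pass (adjusted p = 0.63). Among the 11 genes that the study names for the GCB lines, a list it chose on these libraries, 9 had a lower response in K422. They were NOP16 (-0.54 in HT and -1.18 in K422), LYAR (-0.59 in HT and -1.05 in K422), SLC7A5, SLC1A5, TFRC, EIF2S1, TRIB3, DUSP2 and SCD. HSP90AA1, a cytosolic chaperone, was -0.37 ± 0.12 and -0.88 ± 0.12 with a difference that did not pass (adjusted p = 0.059). TFRC, the transferrin receptor that brings iron into the cell, had -0.55 in HT and -0.91 in K422, and its difference lost the call in 12 of 23 alternative analyses. All 11 fell in both lines, so these 9 differ in extent and not in direction.

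Nucleotide, sugar and amino acid metabolism showed the same order. Of 27 nucleotide synthesis genes 13 had a lower response in K422 (median -0.32), among them CAD, which starts pyrimidine synthesis (-0.24 in HT and -0.69 in K422, difference -0.45 ± 0.10, adjusted p = 0.0099). Of 31 genes of glycolysis and the pentose phosphate pathway 8 were lower, with PFKP, a phosphofructokinase (-0.29 in HT and -0.72 in K422), and HK2, a hexokinase (-0.50 in HT and -0.87 in K422). Of 26 ATF4 targets, the genes of the amino acid stress response, 6 were lower and 0 higher. TRIB3, a pseudokinase that binds AKT, had 152, 150, 144 and 142 CPM in K422 with DMSO and 58.0, 52.2, 68.4 and 75.3 CPM with AZD8186, so treated and control values did not overlap. In HT it had 55.4, 56.2, 66.8 and 70.7 and 41.0, 44.2, 51.1 and 55.9 CPM, a smaller fall (difference -0.85 ± 0.12, adjusted p = 0.0014). PSAT1 of serine synthesis had -0.47 in HT and -1.05 in K422.

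Amino acid transporters did not all move one way. Of 17 tested, 7 had a lower response in K422, with SLC1A5, a glutamine transporter (-0.50 in HT and -1.07 in K422), SLC7A5, the leucine transporter (-0.57 in HT and -0.99 in K422), and its partner SLC3A2 (-0.24 in HT and -0.73 in K422). The 2 with a higher response were SLC7A11, the cystine importer, and SLC1A4. SLC7A11 fell in HT and rose in K422, with log2 ratios of -0.48, -0.56, -0.51 and -0.39 in HT and 0.48, 0.97, 0.23 and 0.13 in K422 at 6, 12, 18 and 24 h (difference 0.93 ± 0.17, adjusted p = 0.005). SLC1A4 rose in both lines (0.27 in HT and 0.66 in K422). Among 36 chaperones of cytosol and mitochondria 9 were lower and 0 higher, such as the HSP90 co-chaperone STIP1 (-0.36 in HT and -0.81 in K422), although FKBP5, counted among the 9, was near 0 in HT and rose in K422. In the endoplasmic reticulum the chaperone HSPA5 fell further in K422 (-0.72 in HT and -1.07 in K422, a call lost in 12 of 23 alternatives), while DNAJB9, one of 2 genes of 29 with a higher response beside SEL1L, rose in K422 (0.11 in HT and 0.71 in K422). Without the 12 h pairs of both lines no chaperone and no nucleotide synthesis gene passed.

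Genes of lipid synthesis fell further in K422 than in HT, SREBF1 among them. SREBF1 encodes the transcription factor SREBP1, which is made active when sterols are low or when mTOR signals, and which switches on genes of fatty acid synthesis. HT had 67.5, 70.2, 93.5 and 102 CPM with DMSO and 54.7, 62.3, 81.1 and 94.1 CPM with AZD8186 at 6, 12, 18 and 24 h. K422 had 65.6, 67.2, 81.0 and 88.4 and 27.8, 29.2, 36.1 and 38.1 CPM. Every treated K422 library was under every K422 control, by 1.21 ± 0.05 on the log2 scale, against a fall of 0.20 ± 0.05 in HT (difference -1.0 ± 0.07, adjusted p = 2.6e-05). Of 12 fatty acid synthesis genes 8 had a lower response in K422 and 0 a higher one, at a median of -0.44. FASN, the fatty acid synthase, had -0.37 in HT and -0.95 in K422, and SCD, the desaturase that makes oleate, had -0.60 in HT and -1.20 in K422. FADS2, a desaturase of polyunsaturated fatty acids, rose in HT from 2.27 to 2.95 CPM and fell in K422 (0.37 in HT and -0.80 in K422).

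Of 24 sterol synthesis genes 12 had a lower response in K422 and 0 a higher one (median -0.34, 2 to 16 over 23 alternatives). The lines stood close together at first: the median log2 ratio at 6 h was -0.36 in HT and -0.38 in K422. At 24 h it was -0.31 in HT and -0.76 in K422. DHCR7, the last enzyme of cholesterol synthesis, had log2 ratios of -0.60, -0.31, -0.50 and -0.51 in HT and -0.95, -1.04, -1.11 and -1.43 in K422 (difference -0.66 ± 0.11, adjusted p = 0.0026), and LSS, which closes the sterol rings, had -0.26 in HT and -0.77 in K422.

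FOXO targets and feedback genes of the PI3K pathway rose in both lines and rose further in K422. Of 32 tested, 22 rose in HT and 27 in K422, and 13 had a higher response in K422, none a lower one (median difference 0.30). KLHL24, a FOXO target and adaptor of a ubiquitin ligase, had 8.92, 9.98, 8.92 and 9.98 CPM in HT with DMSO and 21.6, 28.7, 26.3 and 28.1 CPM with AZD8186 at 6, 12, 18 and 24 h. In K422 it had 9.36, 9.55, 10.2 and 10.6 CPM with DMSO and 64.7, 73.9, 76.3 and 78.6 CPM with AZD8186. It thus rose in all 8 pairs, by 1.47 ± 0.07 in HT and 2.88 ± 0.07 in K422, and the ratios of the lines did not overlap (difference 1.42 ± 0.09, adjusted p = 2.6e-05). HBP1, a repressor of cell cycle genes, rose in the same order (1.07 in HT and 2.11 in K422), as did the FOXO1 and FOXO3 genes themselves (0.89 in HT and 1.65 in K422 for FOXO1, 0.51 in HT and 1.45 in K422 for FOXO3). PINK1, the kinase that marks damaged mitochondria, had 0.48 in HT and 1.65 in K422. The number with a higher response was 4 to 15 over 23 alternatives, fewest without the 18 h pairs of both lines.

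Lysosome and autophagy genes rose mainly in K422: of 44 tested, 26 rose there and 9 in HT, 13 had a higher response in K422 and 1, the protease gene CTSZ, a lower one (-0.27 in HT and -0.68 in K422). Rises were more frequent in K422 over all genes tested too, at 27.2% against 12.2% in HT, and 7.3% had a higher response in K422. GAA, the lysosomal glucosidase, stood at 1.67, 0.777, 0.908 and 1.05 CPM in K422 with DMSO and at 3.34, 3.48, 3.18 and 3.98 CPM with AZD8186. In HT, where it was far more abundant, it had 48.0, 39.1, 37.5 and 36.6 and 52.4, 50.6, 44.0 and 44.6 CPM. The treated K422 libraries all lay above the controls (difference 1.40 ± 0.20, adjusted p = 0.0013). The K422 controls of GAA were near 1 CPM, so the size of its difference is uncertain. Over 23 alternatives it was as low as 0.64, with the call lost in 0. CTSD, the protease cathepsin D, had 0.16 in HT and 0.62 in K422, and LAMP1 of the lysosomal membrane fell in HT and rose in K422 by small amounts (-0.19 in HT and 0.17 in K422). The number with a higher response ranged from 2, without the 18 h pairs of both lines, to 17 over 23 alternatives.

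The promoters of GAA, LAMP1 and HBP1 are printed because they carry the letters linked to factors that the pathway holds back. For the lysosomal genes the letters are TCACGTGA, the core of the element read by TFEB, which overlap the CACGTG above. They were in 5 of 31 lysosome and autophagy promoters (16.1%), in 1.95% of the genes tested and in 0.89% of all promoters. For FOXO they are GTAAACA, on both strands, in 3 of 28 FOXO target promoters (10.7%), 1.93% of the genes tested and 2.98% of all promoters. The matches are in capitals.
GAA (chr17:80101504-80101580, + strand): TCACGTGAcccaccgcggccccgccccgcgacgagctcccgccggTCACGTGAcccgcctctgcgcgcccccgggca
LAMP1 (chr13:113297165-113297238, + strand): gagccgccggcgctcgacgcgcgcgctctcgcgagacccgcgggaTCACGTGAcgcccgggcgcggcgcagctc
HBP1 (chr7:107168785-107168881, + strand): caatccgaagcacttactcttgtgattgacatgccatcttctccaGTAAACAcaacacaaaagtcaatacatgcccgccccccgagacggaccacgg
KLHL24 and FOXO1 held no GTAAACA in these 250 bases, which says only that the letters are not in this window.

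**Figure D2:**
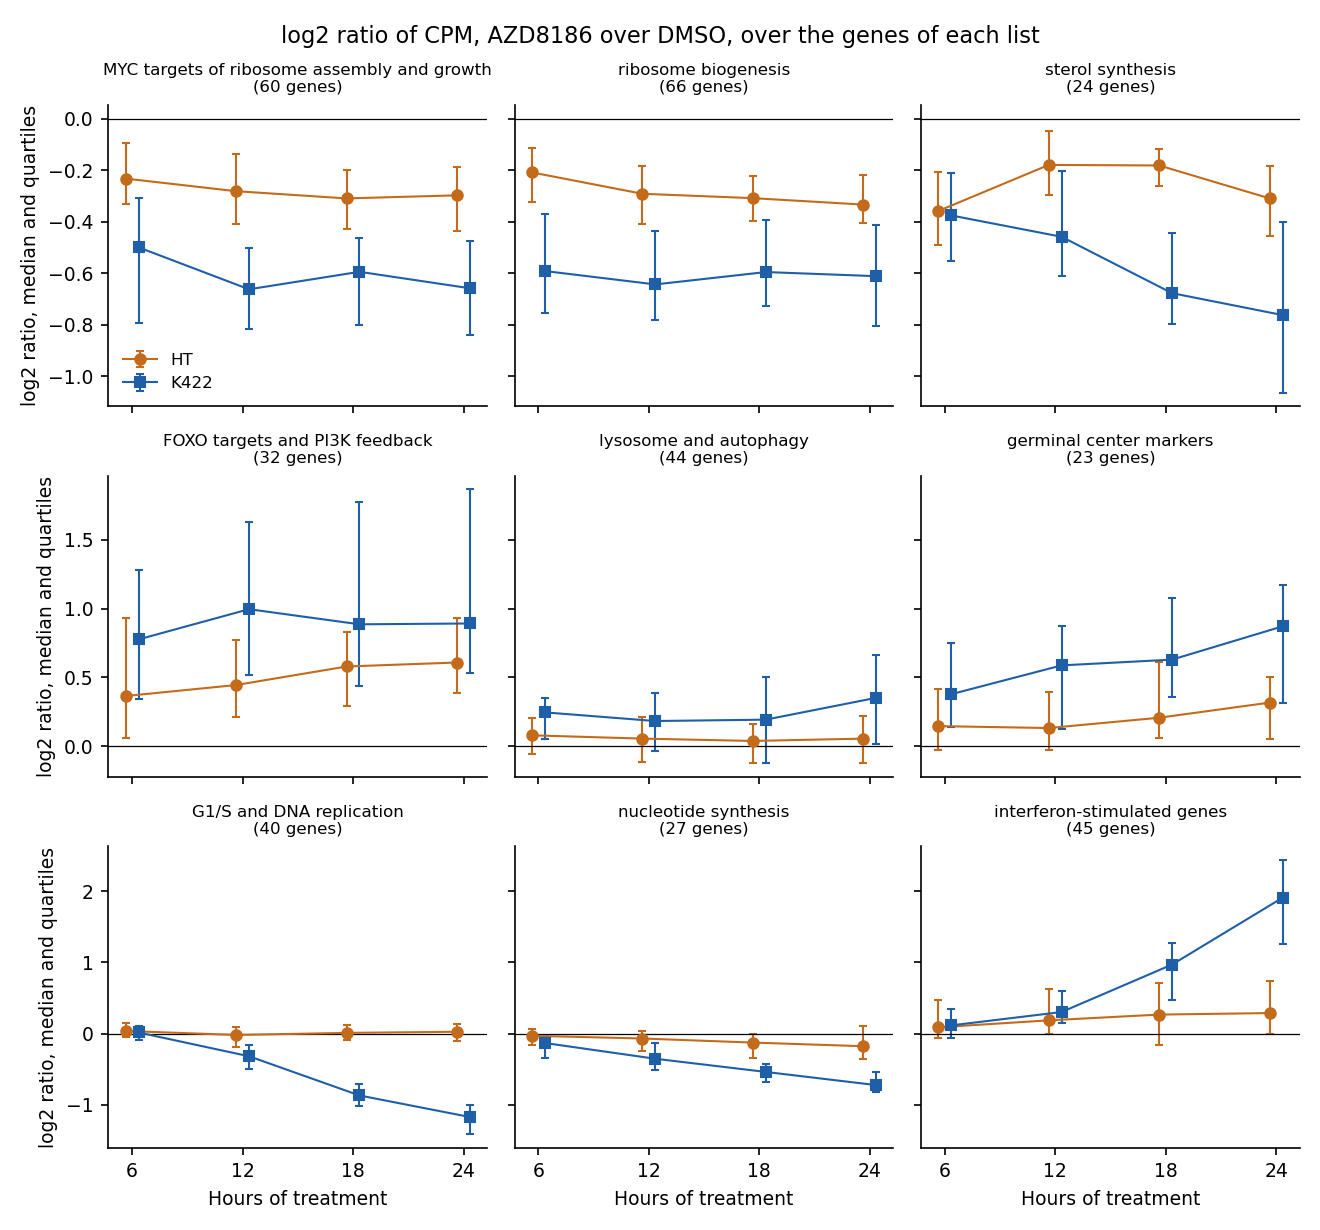
Each panel is a gene list, with the hour of treatment on the x axis and the log2 ratio of AZD8186 over DMSO on the y axis, circles for HT and squares for K422; points are medians over the tested genes of the list and bars run from the lower to the upper quartile over genes. In K422 the median of the G1/S list went from 0.01 at 6 h to -1.17 at 24 h and that of the interferon-stimulated genes from 0.11 to 1.91, while the ribosome biogenesis list stayed near -0.60.

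Genes of the G1/S transition and of DNA replication fell in K422, and they fell with time. Of 40 tested, 34 fell in K422 and 0 in HT, where 2 had an unadjusted p under 0.05 in the direction of a fall. The difference passed for 14, all lower in K422, at a median of -0.62. From 6 to 24 h the list's median log2 ratio took the values 0.04, -0.02, 0.01 and 0.03 for HT, against 0.01, -0.32, -0.87 and -1.17 in K422. The test across 4 hours takes such a drift as spread between pairs, and the number that passed ran from 0 to 36 over 23 alternatives, fewest without the 12 h pairs of both lines. MCM6, a subunit of the replicative helicase, had 137, 131, 143 and 141 CPM in HT with DMSO and 155, 139, 143 and 142 CPM with AZD8186. In K422 it had 349, 308, 316 and 343 CPM with DMSO and 327, 213, 157 and 139 CPM with AZD8186. The treated K422 value lay under its control at every hour and the gap was widest at 24 h (difference -0.80 ± 0.21, adjusted p = 0.022). GINS1, another part of the helicase, had -0.00 in HT and -0.85 in K422, the nuclease FEN1 -0.05 in HT and -0.73 in K422, and CDC6, which loads the helicase, -0.22 in HT and -1.10 in K422. SLBP, which binds histone messages in S phase, had -0.07 in HT and -0.75 in K422.

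CDC25A and MCM6 are E2F targets by textbook knowledge, and their promoters are printed because the letters read by E2F factors sit before the start of genes that fell late in K422. The letters searched were TTTCCCGC and TTTGGCGC, on both strands, in the same 250 bases. They were found before 14 of 34 genes of the G1/S list (41.2%), before 3.39% of the genes tested and 1.96% of all promoters. CDC25A, the phosphatase that activates CDK2, had log2 ratios of -0.38, -0.33, -0.36 and -0.30 in HT and -0.45, -0.94, -1.28 and -1.49 in K422 at 6, 12, 18 and 24 h.
CDC25A (chr3:48188418-48188506, - strand): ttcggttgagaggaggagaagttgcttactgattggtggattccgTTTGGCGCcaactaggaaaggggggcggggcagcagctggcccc
MCM6 (chr2:135876481-135876578, - strand): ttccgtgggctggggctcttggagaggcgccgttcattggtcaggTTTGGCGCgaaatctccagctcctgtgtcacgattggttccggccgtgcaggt
Matches are in capitals, and a further match of MCM6 lies outside the stretch shown.

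Whether the lines diverged with time was tested by comparing the difference at 18 and 24 h with that at 6 and 12 h, 2 pairs per line at each time. It passed for 28 genes (0.255% of those tested), 5 higher and 23 lower, and 1456 had an unadjusted p under 0.05. Of the 23 lower ones 8 were in the G1/S list. UHRF1, which keeps DNA methylation in place at replication, had log2 ratios of 0.04, -0.25, 0.46 and 0.30 in HT and -0.17, -0.05, -1.53 and -1.66 in K422, a change of the difference of -1.97 ± 0.16 (adjusted p = 0.00016). CDT1, which licenses replication origins, had -1.19 ± 0.16, CLSPN of the replication checkpoint -1.33 ± 0.18, and the E2F1 gene -0.84 ± 0.14. In the other direction XBP1, a plasma cell factor of the secretory pathway, had -0.46, -0.33, -0.57 and -0.47 in HT and -1.0, -0.85, 0.05 and 0.14 in K422, so that it was lower with the drug at first in both lines and returned to control level in K422 only (1.15 ± 0.14). GBA2, a glucosylceramidase, had 1.21 ± 0.19. The ribosomal RNA locus RNA28SN3 moved too (0.40, 0.13, 0.61 and 0.01 in HT and -1.05, -0.60, 0.98 and 1.36 in K422). Ribosomal RNA took 0.6905 to 2.621% of a library, and RNA28SN3 is one of several near-identical copies, so its value is uncertain. NUDT4P2, a pseudogene that also passed, had 0.485 CPM in K422. This count rested on single pairs: it was 329 without the K422 12 h pair, 407 without the K422 18 h pair, 15 without the K422 6 h pair and 1 to 4 without any one of the other 5.

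Within K422 alone, a comparison added after the first results were seen, 865 genes (7.89% of those tested) changed from the earlier to the later hours, 401 up and 464 down. They held 38 of the 40 G1/S genes among those that went down, 9 of 27 nucleotide synthesis genes, 8 of 40 G2/M genes and 7 of 24 sterol synthesis genes. In HT 0 genes passed by the same edgeR test and 760 had an unadjusted p under 0.05. Of the 40 G2/M and mitosis genes 12 rose and 0 fell in HT, and 12 rose and 5 fell in K422. Over all genes tested 12.2% rose and 12.1% fell in HT, and 27.2% rose and 26% fell in K422. In K422 the rises of the list were thus near the share over all genes and the falls under it. The G2/M median log2 ratio at 6, 12, 18 and 24 h moved through 0.10, 0.18, 0.21 and 0.22 in HT. In K422 it moved through 0.33, 0.26, 0.15 and -0.33, and 34 of the G2/M genes were below 0 there at 24 h. The change of the difference with time passed for 0 of them, and 27 had an unadjusted p under 0.05. Over the 4 hours the difference passed for 2, the kinase AURKB (0.18 in HT and -0.31 in K422) and CDC20, which starts anaphase (0.03 in HT and -0.35 in K422). Their calls were lost in 11 and 12 of 23 alternatives.

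CCND3, the D-type cyclin of germinal center B cells, had 647, 637, 695 and 688 CPM in HT with DMSO and 732, 965, 1045 and 1048 CPM with AZD8186. K422 libraries had 187, 169.8, 162 and 177 CPM with DMSO and 200.4, 154, 111 and 129.8 CPM with AZD8186. Treated HT libraries lay above all HT controls, while the K422 groups overlapped (0.49 ± 0.10 in HT, -0.26 ± 0.10 in K422, difference -0.75 ± 0.14, adjusted p = 0.0059). FAM111B, which peaks in S phase, had 0.58 in HT and -0.22 in K422 (-0.80 ± 0.17, adjusted p = 0.0095). LIN54, the DNA-binding subunit of the complex that represses cell cycle genes in resting cells, rose in both lines and more in HT (0.91 in HT and 0.28 in K422, -0.63 ± 0.11, adjusted p = 0.0043). Among 16 CDK inhibitors, D cyclins and related genes only CCND3 and BTG1, an antiproliferative FOXO target, differed, and BTG1 was higher in K422.

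Interferon-stimulated genes rose in K422, most of them late. Of 45 tested, 37 rose in K422 and 4 in HT, where 27.2% and 12.2% of all genes tested rose. Yet the difference passed for only 4: IFIH1, IFIT5, SP100 and EIF2AK2. All 4 were higher in K422 and made 8.89% of the list, near the 7.3% with a higher response over all genes tested. The median difference was 0.51, and 9 genes had an unadjusted p under 0.05 for it. The list's median log2 ratio ran 0.09, 0.18, 0.27 and 0.29 in HT and 0.11, 0.30, 0.97 and 1.91 in K422 at 6, 12, 18 and 24 h, and 33 of the genes were higher in K422 at the later hours. None passed the test of the difference between the earlier and later hours, where 14 had an unadjusted p under 0.05. ISG15, a ubiquitin-like protein, shows the course with 606, 415, 328 and 328 CPM in K422 with DMSO and 579, 476, 747 and 1771 CPM with AZD8186. In HT it had 83.4, 61.9, 61.3 and 51.8 and 88.6, 70.4, 64.9 and 68.2 CPM. Treated and control values of ISG15 were alike in K422 up to 12 h and apart at 18 and 24 h, and the difference over 4 hours did not pass (adjusted p = 0.27). The count that passed was 0 to 15 over 23 alternatives.

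IFIH1 encodes a sensor of double-stranded RNA, and it is low in K422. It had 0.739, 0.777, 0.908 and 0.8288 CPM there with DMSO and 1.70, 1.20, 1.94 and 6.11 CPM with AZD8186, against 4.40, 3.62, 3.21 and 3.79 and 4.55, 4.02, 2.55 and 3.97 CPM in HT. All 4 treated K422 libraries were above the K422 controls and the HT groups overlapped (difference 1.6 ± 0.39, adjusted p = 0.017). The K422 controls were all under 1 CPM, so the treated libraries brought its mean there above 1 CPM. Its difference was as low as 0.54 over 22 alternatives and lost the call in 4, among them limma on log2(TPM + 1) (adjusted p = 0.094). IFIT5, which binds RNA ends, had -0.14 in HT and 1.46 in K422 (1.61 ± 0.40, adjusted p = 0.019), a call lost in 8 of 23 alternatives. EIF2AK2, the kinase PKR that stops translation, had -0.20 in HT and 0.25 in K422, and SP100 of nuclear bodies had 0.07 in HT and 0.40 in K422. These last calls were lost in 16 and 15 of 23 alternatives. The promoters of IFIH1 and IFIT5 are printed for the letters of the interferon-stimulated response element, GAAA followed after any 2 bases by GAAA on either strand, shown in capitals. The letters were in 20 of 36 promoters of the interferon list (55.6%), in 2.38% of the genes tested and in 3.07% of all promoters.
IFIH1 (chr2:162318685-162318750, - strand): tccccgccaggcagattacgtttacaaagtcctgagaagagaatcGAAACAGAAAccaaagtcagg
IFIT5 (chr10:89414504-89414567, + strand): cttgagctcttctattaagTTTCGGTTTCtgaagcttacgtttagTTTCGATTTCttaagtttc
IFIT5 holds 2 matches in the stretch and IFIH1 holds 1, with more matches further from its start.

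Of 16 tested genes of MHC class II presentation 3 had a lower response in K422, at a median difference of -0.06, and 1 of them, HLA-DMB, went in opposite directions. The 3 made 18.8% of the list, close to the 16.6% that differed over all genes tested. HLA-DMB, a chain of the complex that loads peptides onto class II molecules, had 9.04, 8.94, 9.43 and 9.35 CPM in HT with DMSO and 12.9, 18.2, 19.6 and 20.4 CPM with AZD8186 at 6, 12, 18 and 24 h. In K422 it had 29.7, 41.5, 36.8 and 36.0 CPM with DMSO and 24.5, 29.5, 28.3 and 32.1 CPM with AZD8186. It rose in HT by 0.94 ± 0.10 and fell in K422 by 0.33 ± 0.09, the largest difference among the opposite genes with at least 5 CPM in each line (-1.27 ± 0.13, adjusted p = 0.00032). Treated and control groups overlapped in K422, where the paired ratios carry the call, and they did not overlap in HT. Its partner HLA-DMA rose in HT only (0.43 in HT and 0.02 in K422), and CIITA, the regulator that switches on class II genes, was low in HT at 1.84 CPM and fell in K422 (0.25 in HT and -0.48 in K422). The calls of HLA-DMA and CIITA were lost in 8 and 2 of 23 alternatives. No class II gene had a higher response in K422. Among 17 class I genes only HLA-E differed, with the higher response in K422 (0.42 in HT and 1.10 in K422). In OCI-Ly10 and TMD8, the activated B-cell-like (ABC) lines of the series, HLA-DMB rose as in HT (0.50 and 0.72).

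Germinal center genes rose further in K422. Of 23 tested, 8 rose in HT and 17 in K422, 12 had a higher response in K422 and 1, SERPINA9, a lower one (-1.14 in HT and -1.50 in K422). The median difference was 0.37, and 4 to 14 were higher over 23 alternatives. BCL6, the repressor that keeps B cells in the germinal center, had 488, 526, 513 and 538 CPM in HT with DMSO and 623, 702, 735 and 777 CPM with AZD8186. K422 had 472, 519, 524 and 529.6 and 766, 936, 969 and 1011 CPM. Controls of the lines were at like levels, and in both lines all treated libraries lay above the controls (difference 0.39 ± 0.08, adjusted p = 0.0092). MYBL1, a transcription factor of these cells, had 0.78 in HT and 1.45 in K422. EBF1, a factor of B-cell identity, rose in K422 and did not pass in HT (0.13 in HT and 0.76 in K422).

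BACH2 rose in both lines and far more in K422. Its product represses the plasma cell program and is a FOXO target in B cells. HT had 6.58, 7.84, 7.39 and 8.43 CPM with DMSO and 29.1, 47.8, 69.8 and 67.1 CPM with AZD8186. K422 had 2.71, 1.61, 1.91 and 2.15 CPM with DMSO and 27.4, 54.5, 112 and 153 CPM with AZD8186. Every treated library was above every control in both lines, and the log2 fold change was 2.78 ± 0.27 in HT and 5.21 ± 0.33 in K422 (difference 2.44 ± 0.45, adjusted p = 0.005). In K422 the level with the drug was higher at each later hour. The K422 controls lay at 1.61 to 2.71 CPM, so the treated libraries brought BACH2 to the mean of 5 CPM there. Over 23 alternatives its difference was as low as 1.12 and lost the call in 3, among them limma on log2(TPM + 1) (adjusted p = 0.09996). In OCI-Ly10, at 14.2 CPM, the response was -0.65 ± 0.26 (adjusted p = 0.079), and TMD8 had 0.0619 CPM. JCHAIN, the joining chain of secreted IgA and IgM, rose in both lines and more in K422 as well (0.84 in HT and 2.36 in K422), beside CD27, a memory and plasma cell receptor (0.43 in HT and 0.95 in K422). These were the 2 of 12 plasma cell factors with a higher response in K422. FKBP11 and TXNDC5 of the secretory pathway had a lower one.

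Components of B-cell receptor signaling differed in both directions, 4 higher and 8 lower in K422 of 32 tested, FCRL3 among the higher ones being near 0 in HT. PTPN6, the phosphatase SHP-1 that damps the receptor, had 116, 82.8, 116 and 117 CPM in HT with DMSO and 40.3, 43.1, 65.4 and 74.9 CPM with AZD8186. K422 libraries had 520.0, 507, 466 and 426 CPM with DMSO and 105, 108, 128 and 150.2 CPM with AZD8186. It fell in all 8 pairs, by 0.97 in HT and 1.98 in K422 on the log2 scale (difference -1.0 ± 0.20, adjusted p = 0.0071). RAC2, a small GTPase of blood cells, fell with it (-0.49 in HT and -1.49 in K422). BLNK, the adaptor below SYK, rose in both lines (0.29 in HT and 0.86 in K422). NFATC1, a calcium-responsive transcription factor, rose in HT and fell in K422 (0.44 in HT and -0.22 in K422). SYK itself passed in neither line while the difference did (0.22 in HT and -0.14 in K422, -0.37 ± 0.11, adjusted p = 0.038), a call lost in 10 of 23 alternatives.

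Early response genes of the receptor and of MAP kinase signaling had lower responses in K422 in 7 of 23 cases and a higher one in SPRED2, an inhibitor of the pathway (0.10 in HT and 0.58 in K422, a call lost in 11 of 23 alternatives). The median difference was -0.51 and moved between -0.58 and -0.07 over 23 alternatives. DUSP2, a phosphatase of MAP kinases, fell in both lines and further in K422 (-0.72 in HT and -1.48 in K422). FOSB, a subunit of AP-1, rose in HT and fell in K422 (0.34 in HT and -0.63 in K422), at 6.42 and 7.13 CPM. DUSP1 rose in HT only, from 1.04 to 2.18 CPM. ETV4 and JUNB fell further in K422 (-0.34 in HT and -1.10 in K422 for ETV4, -0.11 in HT and -0.48 in K422 for JUNB), and in HT, where they were lower with the drug in all 4 pairs, their responses did not pass. Their differences lost the call in 3 and 8 of 23 alternatives. DUSP4 and DUSP6, which switch off ERK, were near 0 in HT and are given with the genes of low level.

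Among NF-kB targets 3 of 26 were higher and 5 lower in K422, and among TNF ligands and receptors 1 of 17 higher and 5 lower. LTB, the membrane part of lymphotoxin, had 8.81, 5.98, 6.83 and 6.48 CPM in HT with DMSO and 10.6, 20.9, 37.6 and 60.5 CPM with AZD8186. In K422 it had 183, 191, 164 and 132 CPM with DMSO and 125, 127, 201 and 282 CPM with AZD8186. Treated HT values were above their controls at every hour, while in K422 treated values lay under the controls at 6 and 12 h and above them at 18 and 24 h (2.03 ± 0.42 in HT, 0.06 ± 0.32 in K422, difference -1.96 ± 0.53, adjusted p = 0.026). LTA, the soluble lymphotoxin, fell in both lines, from 3.73 to 1.57 CPM in HT and from 231 to 44.4 CPM in K422 (-1.12 ± 0.28, adjusted p = 0.019). REL, the NF-kB subunit of B cells, rose in K422 and did not pass in HT (0.04 in HT and 1.08 in K422, 1.03 ± 0.14, adjusted p = 0.0011), as did CD86, a costimulatory ligand (-0.61 in HT and 0.51 in K422), and BIRC2, an inhibitor of apoptosis (0.04 in HT and 0.40 in K422). NFKB1 and the adaptor TRAF2 fell in K422 and did not pass in HT (0.16 in HT and -0.19 in K422 for NFKB1, -0.15 in HT and -0.70 in K422 for TRAF2), where TRAF2 was lower with the drug in all 4 pairs. The differences of LTB and NFKB1 lost the call in 8 and 10 of 23 alternatives, and that of TRAF2 in 0. Those of LTA, BIRC2 and REL lost it in 6, 7 and 0 of 23. The difference of CD86 was as low as 0.55 over 22 alternatives and lost the call in 4.

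In the BCL2 family 4 of 13 tested members had a higher response in K422 and 1, BAK1, a lower one (-0.26 in HT and -0.55 in K422). PMAIP1 encodes NOXA, which neutralises MCL1. HT had 14.8, 13.1, 11.8 and 14.4 CPM with DMSO and 9.42, 9.61, 9.46 and 11.8 CPM with AZD8186. K422 had 11.6, 10.3, 8.81 and 8.07 CPM with DMSO and 15.3, 29.1, 40.1 and 41.1 CPM with AZD8186. Treated libraries were above all controls in K422 and at or below all controls in HT, where the response did not pass (adjusted p = 0.23), and the difference of 2.05 ± 0.34, adjusted p = 0.003 was among the 6 largest of the genes with a response in K422 only. BCL2L13 rose in K422 and did not pass in HT (0.03 in HT and 0.35 in K422). MCL1 itself passed in neither line, and its difference did (-0.19 in HT and 0.15 in K422, 0.35 ± 0.10, adjusted p = 0.043). The calls of BAK1, BCL2L13 and MCL1 were lost in 10, 11 and 12 of 23 alternatives. BCL2, the antiapoptotic founder of the family, was near 0 in HT.

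**Figure D3:**
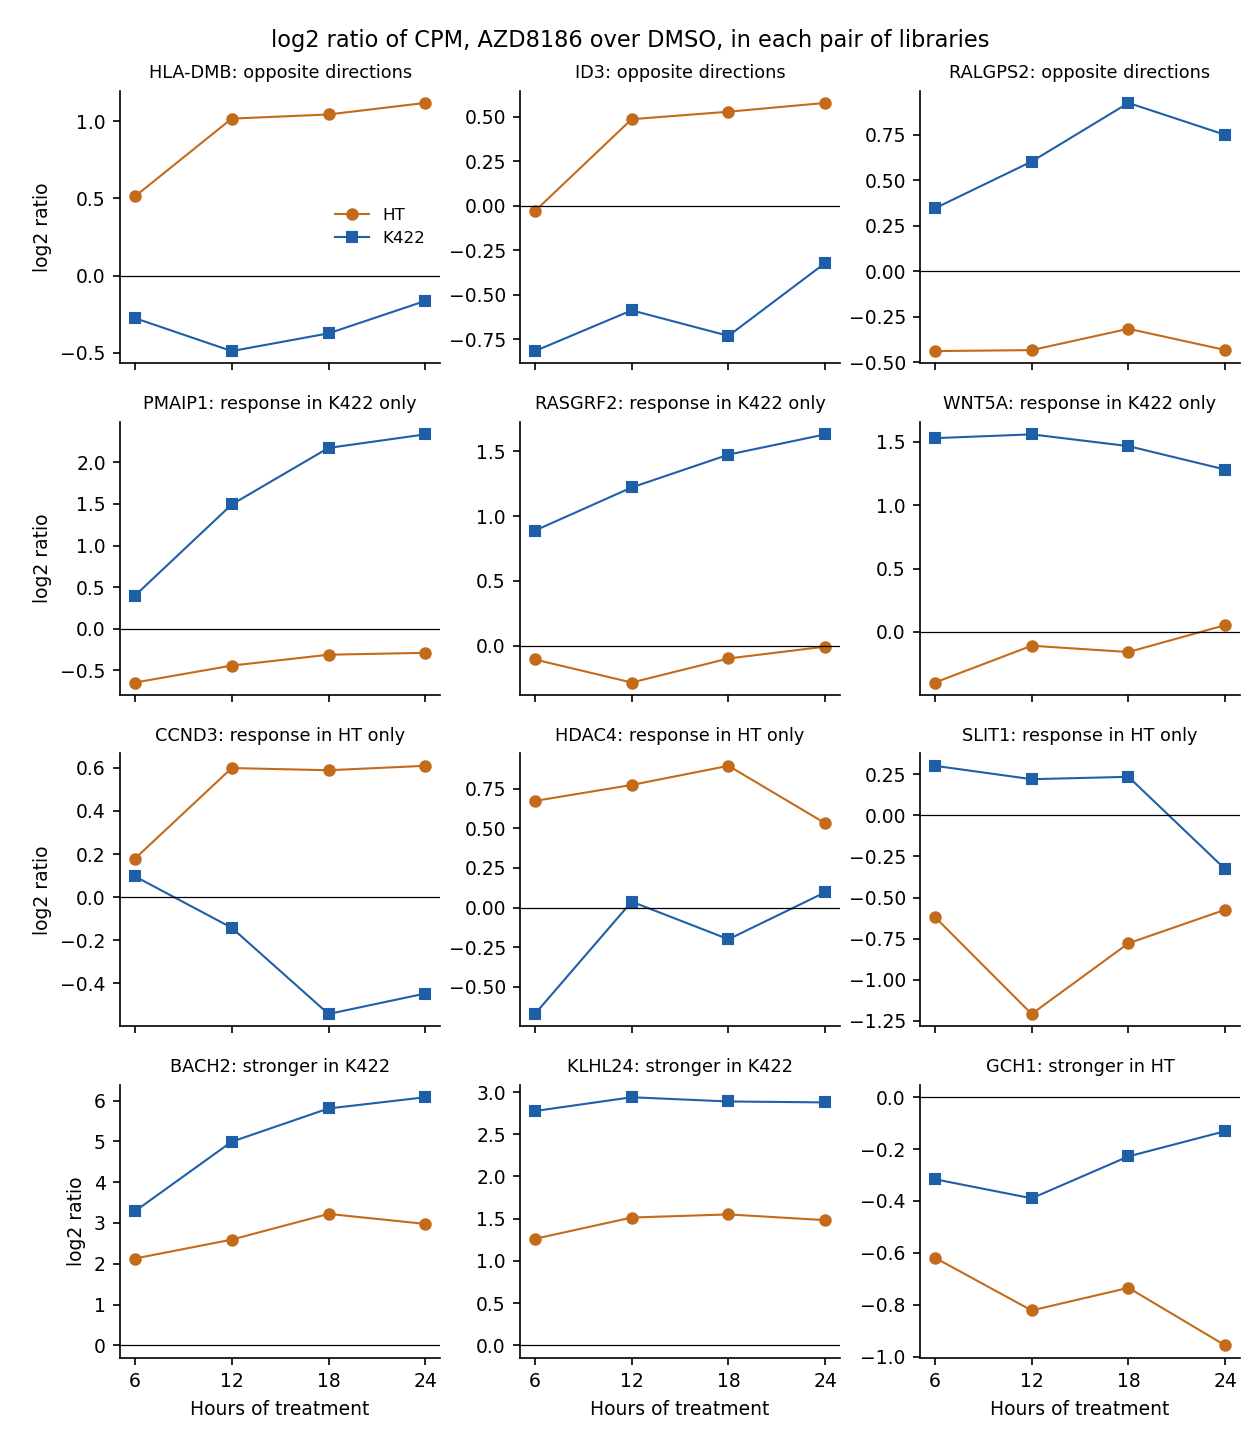
Each panel is a gene, with the hour of treatment on the x axis and the log2 ratio of AZD8186 over DMSO on the y axis; each point is 1 pair of libraries, circles for HT and squares for K422, and the y axes differ between panels. HLA-DMB and ID3 lie above 0 in HT, except ID3 at 6 h with -0.03, and below 0 in K422, RALGPS2 the reverse, and BACH2 and KLHL24 lie above 0 in both lines and higher in K422.

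Of the 6 opposite genes with the largest differences at 5 CPM or more, HLA-DMB, ARHGAP45, ID3 and THEM6 rose in HT and fell in K422. ID3, which blocks the E-protein transcription factors, had 121, 129, 127 and 129 CPM in HT with DMSO and 118, 180.2, 184 and 193 CPM with AZD8186. In K422 it was far lower, with 10.4, 11.8, 11.3 and 11.9 and 5.88, 7.83, 6.80 and 9.53 CPM. The treated HT library lay slightly below its control at 6 h and above it at the later hours, and all treated K422 libraries lay below all controls (0.39 ± 0.09 in HT, -0.61 ± 0.13 in K422, -1.0 ± 0.16, adjusted p = 0.0023). ARHGAP45, a GTPase-activating protein, had 0.42 in HT and -0.67 in K422, and THEM6 had 0.31 in HT and -0.66 in K422. RALGPS2, an activator of the GTPase RalA, and DSG1, a desmosomal cadherin, went the other way (-0.41 in HT and 0.66 in K422 for RALGPS2, -0.46 in HT and 0.71 in K422 for DSG1). In TMD8 the estimates for ID3 and RALGPS2 were 1.30 and 1.32, both past the threshold.

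Besides PMAIP1, large responses seen in K422 only included those of LOC283710, WNT5A, VNN2 and RASGRF2. WNT5A, a secreted Wnt ligand, had 33.7, 36.4, 38.5 and 40.4 CPM in K422 with DMSO and 97.5, 108, 107 and 98.4 CPM with AZD8186, which did not overlap. In HT it had 7.61, 6.58, 5.81 and 5.39 and 5.74, 6.09, 5.19 and 5.60 CPM, which did (1.62 ± 0.12, adjusted p = 3.3e-05). LOC283710, a gene without a name, had 0.03 in HT and 1.78 in K422, VNN2, an enzyme of the cell surface, -0.04 in HT and 1.34 in K422, and RASGRF2, an activator of Ras, -0.12 in HT and 1.31 in K422. The K422 controls of LOC283710 had a mean of 4.22 CPM, so the treated libraries, at 14.4 CPM, brought it to the mean of 5 CPM. Its call was lost in 2 of 23 alternatives. Among genes that rose in both lines, KANK2, a cytoskeletal adaptor, rose from 1.25 to 14.5 CPM in K422 and from 15.1 to 26.6 CPM in HT (2.67 ± 0.28, adjusted p = 0.00033). Its K422 controls were near 1 CPM, so the treated libraries brought it to the mean of 5 CPM, and the difference was 1.03 on log2(TPM + 1). LHFPL2 (0.68 in HT and 2.23 in K422), YPEL5 (0.78 in HT and 2.29 in K422) and CAB39L, a scaffold of the kinase LKB1 (0.96 in HT and 2.46 in K422) also rose more in K422, like JCHAIN and BACH2. YPEL5 had a mean of 3.08 CPM in the K422 controls and 15.7 CPM with AZD8186.

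Responses in HT only or stronger in HT were few. HDAC4, a class IIa histone deacetylase, had 0.73 in HT and -0.19 in K422 (-0.93 ± 0.20, adjusted p = 0.0095), and the zinc finger gene ZNF775 had 1.06 in HT and 0.02 in K422 (-1.04 ± 0.14, adjusted p = 0.0013). HDAC4 had a mean of 3.87 CPM in the HT controls and 6.46 CPM with AZD8186, so the treated libraries brought it to the mean of 5 CPM. Its difference was as weak as -0.42 over 23 alternatives and lost the call in 2. MAPKBP1, a scaffold of JNK signaling, rose in HT (0.90 in HT and 0.18 in K422), and SLIT1, a guidance ligand, fell there (-0.79 in HT and 0.12 in K422). GCH1, the first enzyme of tetrahydrobiopterin synthesis, had 97.7, 76.3, 82.8 and 97.7 CPM in HT with DMSO and 63.6, 43.1, 49.7 and 50.3 CPM with AZD8186. K422 libraries had 234, 219, 247 and 259.9 CPM with DMSO and 188, 167, 211 and 237 CPM with AZD8186. HT groups did not overlap and K422 groups did, although the treated library was lower in every pair (-0.78 ± 0.06 in HT, -0.27 ± 0.06 in K422, 0.52 ± 0.09, adjusted p = 0.0034). SFMBT2, a Polycomb group gene, fell more in HT too (-0.68 in HT and -0.24 in K422). H1FX, a linker histone (0.92 in HT and 0.34 in K422), PITPNM1, a lipid transfer protein (0.53 in HT and 0.18 in K422), and the tyrosine kinase gene PTK2B (0.70 in HT and 0.26 in K422) rose more in HT. The call of PTK2B was lost in 13 of 23 alternatives.

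Some genes that responded in one line had under 1 CPM in the other. Of the 61 genes under 1 CPM in a line whose difference passed, 27 were low in HT and 35 in K422, 1 of them in both. Their differences depend on counts near 0, so levels are given and not a fold between lines. BCL2 had 87.7, 83.0, 89.2 and 93.1 CPM in K422 with DMSO and 196, 222, 256 and 261 CPM with AZD8186, a response of 1.40 ± 0.07, while HT had 0.323 CPM on average. ZEB2, a zinc finger repressor, and FCRL3, an Fc receptor-like protein of B cells, rose in K422 from 4.72 to 28.1 CPM and from 2.96 to 10.1 CPM, with 0.323 and 0.114 CPM in HT. DUSP4 fell in K422 from 214 to 88.0 CPM and DUSP6 from 29.2 to 10.2 CPM, with 0.0654 and 0.305 CPM in HT. FKBP5, a co-chaperone of steroid receptors, went from 152 to 291 CPM in K422 and from 0.0398 to 1.02 CPM in HT. On the other side CDKN1C, the CDK inhibitor p57, had 1.94, 1.70, 1.89 and 1.49 CPM in HT with DMSO and 6.50, 9.55, 6.81 and 6.96 CPM with AZD8186, and it was at 0 in all 8 K422 libraries. BBC3, the BH3-only protein PUMA, rose in HT from 3.54 to 10.9 CPM and NEIL1, a DNA glycosylase, from 2.76 to 7.66 CPM. In K422, where both had under 1 CPM on average, they were higher with the drug in all 4 pairs too, BBC3 from 0.213 to 0.954 CPM and NEIL1 from 0.321 to 1.31 CPM, and their differences did not pass.

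Few genes of the remaining lists differed. Respiratory chain genes had 2 higher of 43, NDUFB5 and SDHC, the proteasome 1 of 31, PSMD4, and homing and adhesion receptors 1 higher and 1 lower of 17, CNR2 and ITGB2. Of 8 tested histone genes only H1FX differed. Ribosomal protein genes rose in K422, 62 of 79, and 0 rose in HT, at a median difference of 0.19, yet the difference passed for RPS26 alone (-0.26 in HT and 0.18 in K422). With other settings 0 to 28 of them passed. Several of these genes have near-identical pseudogenes that share reads, so their single values are uncertain. Of the 8 markers of germinal center B cells EBF1 and BCL6 differed, and no tested T-cell, myeloid or stroma marker did. The plot of the share of each list that differed sets these beside the lists above.

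**Figure D4:**
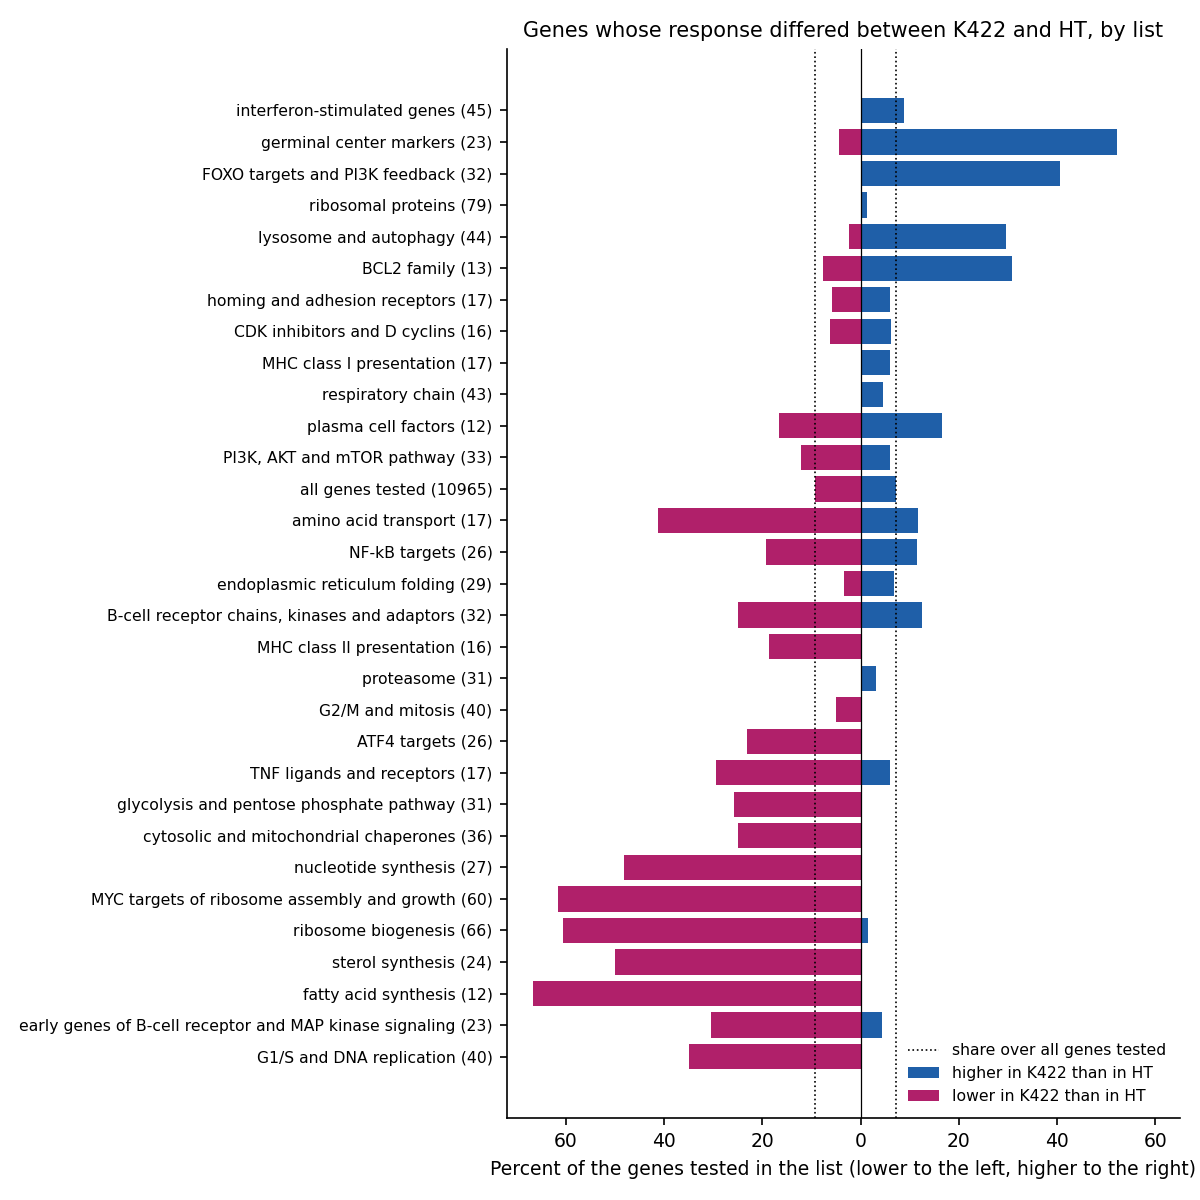
Each bar is a gene list with at least 12 tested genes, which leaves out shorter ones such as the 11 genes the study names, with the percentage of its tested genes whose response was higher in K422 drawn to the right and lower in K422 to the left; the dotted lines mark the shares over all genes, 7.3% higher and 9.32% lower. The longest of these bars to the left are fatty acid synthesis, MYC targets and ribosome biogenesis, and germinal center markers and FOXO targets reach furthest to the right.

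The ABC lines OCI-Ly10 and TMD8 received the same treatment, in 4 and 3 pairs. In a fit over all 30 libraries 24.5% of genes responded in OCI-Ly10 and 18% in TMD8. Of the 520 genes that responded more strongly in K422, 324 responded in that direction in OCI-Ly10 and 7 against it, and 248 and 16 in TMD8. Of the 1024 with a response in K422 only, 252 went with K422 and 65 against it in OCI-Ly10, and 183 and 56 in TMD8. Of the 50 opposite genes, 7 went with K422 and 8 against it in OCI-Ly10, and 10 and 8 in TMD8. KLHL24 rose in all 4 lines, by 0.91 in OCI-Ly10 and 1.10 in TMD8. SREBF1 fell in all 4 as well (-0.33 and -0.63). The G1/S list, which fell late in K422, had 11 of 40 genes down in OCI-Ly10 and 1 in TMD8. Of all 10965 genes tested, 1340 and 878 fell in these lines. Interferon-stimulated genes rose in 6 and 12 of 45 cases, beside 1347 and 1096 of the 10965 genes tested. The count in OCI-Ly10 was thus near the share over all genes.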

How the data were processed

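RNA-seq of HT, K422, OCI-Ly10 and TMD8 cells gave 30 libraries, of which the 16 of HT and K422 were compared. The authors aligned reads with HISAT2 and quantified genes with RSEM, with GRCh38.p12 named in the submitters' processing notes; the versions of both tools are unknown here. The deposited expected counts, estimated per gene and not normalized, were rounded to whole numbers. The deposited TPM values, scaled by length and depth by the authors, served an alternative only, and the FPKM columns were not used. Reads of near-identical copies are shared out by RSEM's estimate, and strandedness is not given in the sources used here.

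Counts were normalized by TMM, filtered by filterByExpr on treatment and fitted with edgeR 4.0.16 in R 4.3.3 (quasi-likelihood test, Benjamini-Hochberg adjustment over 10965 genes) with the 8 pairs as a block, treatment, and treatment by cell line. Within-line responses are contrasts of the same fit, and the change over time added treatment by late terms. Ratios per pair compare log2 CPM, where the prior count was 2. The study's methods compare both treatments across the hours. The pairing comes from the labels' line and hour: after removal of group means, each library correlated best with its partner in 7 of 8 pairs (r 0.0665 to 0.238), the exception being K422 at 24 h (r -0.00815). The series text calls the controls untreated, whereas the sample labels say DMSO. The fit was tested on simulated data.

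Members, gene lists and tests were chosen with earlier results of these data known. Genes were named if the study names them for the GCB lines, if they were among the 6 largest differences of a class (at least 5 CPM in each line, ratios not overlapping), the 3 smallest p of a list, the 5 smallest p among genes low in the other line, or the 3 smallest p per direction of the change over time; the text leaves out some list genes and some low genes. PIK3CB, PIK3CD, E2F1, E2F2, CLSPN, CDC25A, ISG15, DCN and the exceptions named within lists were added after their values were seen, as was the later-against-earlier contrast within each line. Promoter letters were searched in RefSeq entries of GRCh38.p14, found for 115 of the 138 genes with library values drawn up. Alternatives used limma 3.58.1 and DESeq2 1.42.0, and figures matplotlib 3.10.9. Some genes of the lists and of the naming rule are not reported here.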

Additional observations from a re-analysis of the deposited data

Results flagged for a closer look

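In 18 of 276 sets of 4 log2 ratios, a set being 1 gene in 1 line at 6, 12, 18 and 24 h, the lowest or the highest ratio stood apart from the other 3 by more than Dixon's 95% limit. Chance gives about 1 in 20 such sets, and the 4 ratios are different hours rather than repeats of 1 hour. The ratios that stood apart were LYAR (K422, 24 h) at -1.24, TFRC (HT, 6 h) at -0.329, HLA-DMB (HT, 6 h) at 0.513, RALGPS2 (HT, 18 h) at -0.317, ID3 (HT, 6 h) at -0.0304, LOC283710 (K422, 6 h) at 0.599, SLIT1 (K422, 24 h) at -0.328, CCND3 (HT, 6 h) at 0.178, LIN54 (HT, 18 h) at 1.14, JUNB (HT, 6 h) at -0.391, NOLC1 (HT, 6 h) at -0.23, FASN (HT, 12 h) at -0.289, CTSZ (HT, 24 h) at -0.0674, HLA-DMA (HT, 6 h) at 0.138, SLC1A4 (K422, 6 h) at 0.357, CDC20 (K422, 24 h) at -0.673, BCL2L13 (K422, 6 h) at 0.11 and BBC3 (K422, 24 h) at 3.22. Of these, 7 were HT at 6 h, in TFRC, HLA-DMB, ID3, CCND3, JUNB, NOLC1 and HLA-DMA.

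Responses of the lines differed by edgeR's test of the difference for 122 of the 138 genes for which all library values were drawn up. The values are log2 fold changes in K422 minus those in HT. The genes that responded in opposite directions differed by -1.27 for HLA-DMB, 1.17 for DSG1, -1.09 for ARHGAP45, 1.06 for RALGPS2, -1.0 for ID3, -0.98 for THEM6, -0.97 for FOSB, -1.18 for FADS2, -0.77 for PIK3CG, 0.36 for LAMP1, 0.93 for SLC7A11 and -0.66 for NFATC1. Genes with a response in K422 only differed by 2.05 for PMAIP1, 1.75 for LOC283710, 1.62 for WNT5A, 1.44 for RASGRF2, 1.38 for VNN2, -0.76 for ETV4, -0.37 for JUNB, 0.48 for SPRED2, 1.03 for REL, 1.12 for CD86, 0.37 for BIRC2, -0.35 for NFKB1, -0.55 for TRAF2, -0.72 for PWP2, 0.3 for NOB1, -0.36 for AKT1, 0.37 for AKT1S1, 0.45 for TSC1, 0.46 for CTSD, 1.6 for IFIH1, 1.61 for IFIT5, 0.33 for SP100, 0.46 for EIF2AK2, -0.72 for CIITA, 0.59 for DNAJB9, -0.85 for GINS1, -0.68 for SLBP, -0.68 for FEN1, -0.8 for MCM6, -0.88 for CDC6, -0.49 for AURKB, -0.38 for CDC20, 0.32 for BCL2L13, 0.63 for EBF1, -0.7 for CDC25A and -0.82 for E2F2. Genes with a response in HT only differed by -1.04 for ZNF775, -0.93 for HDAC4, 0.91 for SLIT1, -0.8 for FAM111B, -0.75 for CCND3, -0.72 for MAPKBP1, -1.18 for DUSP1, -1.96 for LTB, -0.41 for HLA-DMA and 0.44 for RPS26. Those that responded more strongly in K422 differed by -0.6 for SCD, -0.76 for DUSP2, -0.43 for SLC7A5, -0.57 for SLC1A5, -0.85 for TRIB3, -0.64 for NOP16, -0.46 for LYAR, -0.36 for TFRC, -0.38 for EIF2S1, 2.67 for KANK2, 2.44 for BACH2, 1.55 for LHFPL2, 1.52 for JCHAIN, 1.51 for YPEL5, 1.5 for CAB39L, -1.12 for LTA, -0.62 for DCTPP1, -0.51 for UTP20, -0.46 for NOLC1, -0.56 for UTP4, -0.41 for DKC1, -0.66 for DHCR7, -0.51 for LSS, -1.0 for SREBF1, -0.57 for FASN, 1.42 for KLHL24, 1.04 for HBP1, 0.76 for FOXO1, 0.94 for FOXO3, 1.17 for PINK1, 1.4 for GAA, -0.41 for CTSZ, 0.68 for HLA-E, -0.58 for PSAT1, -0.5 for SLC3A2, 0.39 for SLC1A4, -0.35 for HSPA5, -0.44 for STIP1, -0.44 for PFKP, -0.36 for HK2, -0.45 for CAD, -0.29 for BAK1, -1.0 for RAC2, -1.0 for PTPN6, 0.58 for BLNK, 0.67 for MYBL1, -0.37 for SERPINA9, 0.39 for BCL6 and 0.52 for CD27. Those that responded more strongly in HT differed by -0.63 for LIN54, -0.58 for H1FX, 0.52 for GCH1, 0.45 for SFMBT2, -0.43 for PTK2B and -0.36 for PITPNM1. With under 1 CPM in a line, where the value depends on counts near 0, the estimates were -1.72 for DUSP6, -3.55 for FKBP5, 1.32 for BCL2, 3.49 for FCRL3, 1.86 for ZEB2 and -3.84 for DUSP4. Neither line's response passed for MCL1 (0.35), SYK (-0.37) and CDT1 (-0.81), whose differences did, with calls lost in 12, 10 and 12 of 23 alternatives.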

How the results depend on the processing

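Leaving out 1 pair, or 1 hour in both lines, gave 181 to 1340 genes with a higher and 221 to 1612 with a lower response in K422, 6 to 91 opposite, 279 to 1590 in K422 only, 16 to 186 in HT only, 98 to 939 stronger in K422, 1 to 33 stronger in HT, 469 to 1716 that rose and 444 to 1774 that fell in HT, and 1 to 407 whose difference changed with time. The fewest calls mostly came without 12 or 18 h in both lines, which leaves 3 pairs per line, and the most without the K422 6 h pair; the cause was not tested. Single pairs whose absence moved a count by over 1.5 times were, for higher responses in K422, HT 12 h (513), HT 24 h (488), K422 6 h (1340) and K422 18 h (445), and for lower ones HT 12 h (563), HT 18 h (590), HT 24 h (577), K422 6 h (1612), K422 12 h (622) and K422 18 h (580). For opposite genes they were HT 12 h (19), HT 18 h (19), HT 24 h (14), K422 6 h (91), K422 12 h (28) and K422 18 h (30), for K422 only K422 6 h (1590) and K422 18 h (567), for HT only HT 12 h (59), HT 18 h (55), HT 24 h (52) and K422 18 h (76), for stronger in K422 HT 6 h (315), HT 12 h (245), HT 18 h (232), HT 24 h (245), K422 6 h (939) and K422 18 h (322), for stronger in HT HT 6 h (28), HT 12 h (5), HT 18 h (5), HT 24 h (4), K422 12 h (2) and K422 18 h (4), for genes that rose in HT HT 12 h (726), HT 18 h (625) and HT 24 h (623), for those that fell in HT HT 12 h (798), HT 18 h (722) and HT 24 h (718), and for the change with time HT 6 h (2), HT 12 h (1), HT 18 h (4), HT 24 h (2), K422 6 h (15), K422 12 h (329), K422 18 h (407) and K422 24 h (2).

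At an adjusted p under 0.01 the counts were 297 higher, 375 lower, 10 opposite, 445 in K422 only, 35 in HT only, 164 stronger in K422, 2 stronger in HT, 618 up and 651 down in HT, and 2 for the change with time. Under 0.1 they were 1247, 1543, 110 opposite, 215 in HT only, 843 and 35 stronger in K422 and in HT, and 118. Counting a line as responding at 0.2 gave 197 opposite genes and 23 stronger in HT. Opposite genes numbered 30 by DESeq2's Wald test, 27 with the spread taken from all 30 libraries and 30 by limma on log2(TPM + 1). With all 30 libraries 322 were stronger in K422, and stronger responses in HT numbered 30 with terms for treatment at each hour and 6 on TPM. The change with time passed for 292 genes without the low-count filter and 15 without ribosomal RNA, ribosomal protein and histone genes.

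Without the replicate block, that is without the pairing of libraries by line and hour, 1766 genes differed, 88.9% of the 1822 among them. DESeq2 called 1496 and shared 76.8%, limma-voom 1802 and 95.7%, and limma on TPM 1650 and 71.9%. Of the calls 43.9% were higher in K422, against 33.6% on TPM. The estimates for FKBP5 and BBC3, each under 1 CPM in a line, reversed on log2(TPM + 1), to 0.395 and -0.759. The other counts stayed within 1.5 times of those reported. Depth limits the genes under 1 CPM in a line, and 4 pairs per line limit small differences.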
